A study of Homo sapiens with 17 samples.

Results

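The 44 genes described here act in DNA replication and S phase, the part of the cell cycle in which the genome is copied. They were taken from a list of names, drawn up with earlier results of these data known, and are 44 of the 19775 genes that have a probe set with 1 gene symbol on the array. Where several probe sets carry 1 symbol, the one with the highest mean log2 signal stands for the gene. They fall into 6 roles: 10 genes of origin licensing and the MCM helicase, 6 of helicase activation, 14 polymerase, clamp and clamp loader genes, 4 of nucleotide supply, 4 transcription factors, and 6 of chromatin, checkpoint and protein turnover. All 44 passed the filter on low signals, as did 13675 of the 19775 genes.

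The cells were IMR32, a line from a human neuroblastoma, in which doxycycline added to the medium switches on NOTCH3IC, the intracellular, active part of the receptor NOTCH3. The clones c6 and c8 both carry the inducible NOTCH3IC, so every array, the time-0 arrays included, comes from cells with the construct. Clone c6 was sampled at times 0, 4, 8, 12, 24, 48, 72, 96 and 120 and clone c8 at the same times up to 96, with 1 array for each clone and time and 17 arrays in all. The labels give these times without a unit, and they are printed here as labelled. No cells without the construct, and none kept without doxycycline after time 0, were analysed here, so NOTCH3IC, doxycycline and time in culture cannot be told apart in any comparison with time 0. Each clone is 1 derived line, and nothing in the labels names separate cultures, so the p-values reflect only how far these arrays differ.

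Replication starts at origins, where the origin recognition complex with CDC6 and CDT1 loads the MCM2 to MCM7 ring, a step called licensing. Loaded rings become active helicases when CDC45, the GINS complex and MCM10 join them, and polymerases, the PCNA clamp and its loader then copy both strands. Most of these genes are transcribed in a wave around the start of S phase under E2F transcription factors, which the retinoblastoma protein family holds back in cells that do not divide. The genes of mitosis follow later in the cycle, largely through other promoter elements, among them the CHR motif. MYCN, which is amplified in IMR32, is itself a driver of entry into the cell cycle.

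The promoters of 5 of these genes are shown because an E2F motif is the letters most of the set share. Among those with a match upstream of the start, these 5 had the smallest p for times 4, 8 and 12 against time 0. For E2F the letters TTCCCGC were searched on both strands, with the variants TTGGCGC as well as TTCGCGC and also TTGCCGC. The same was done for the CCAAT box with its own letters and for CHR with the letters TTTGAA. RefSeq promoters of build GRCh38.p14, each running from 250 bases before to 50 after the gene's start, were matched for 39 of the 44 genes and not for MCM4, MCM5, GINS4, RPA2 and E2F8. An E2F match lay in 31 of the 39 (79.5%), against 13.1% of 27305 promoters of the same length. A CCAAT match lay in 59.0% of the 39 against 35.7% of all promoters, and a CHR match in 2.56% (1 gene, RRM1) against 15.4%. The 250 bases upstream of the start are printed 5′ to 3′ on the gene's strand, with each E2F match in capitals: DTL (chr1:212035498-212035747, + strand), ZNF367 (chr9:96418371-96418620, - strand), E2F1 (chr20:33686386-33686635, - strand), UHRF1 (chr19:4909251-4909500, + strand) and PCNA (chr20:5126623-5126872, - strand).
DTL: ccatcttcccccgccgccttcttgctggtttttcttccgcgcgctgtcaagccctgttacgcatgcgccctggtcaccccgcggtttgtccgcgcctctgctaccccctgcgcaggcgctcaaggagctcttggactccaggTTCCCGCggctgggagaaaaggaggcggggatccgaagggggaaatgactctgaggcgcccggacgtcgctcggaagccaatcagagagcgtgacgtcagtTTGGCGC
ZNF367: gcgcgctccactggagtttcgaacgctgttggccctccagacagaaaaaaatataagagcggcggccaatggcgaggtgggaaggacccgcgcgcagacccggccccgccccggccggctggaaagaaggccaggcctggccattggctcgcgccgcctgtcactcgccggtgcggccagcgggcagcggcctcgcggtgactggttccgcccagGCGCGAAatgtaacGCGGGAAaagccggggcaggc
E2F1: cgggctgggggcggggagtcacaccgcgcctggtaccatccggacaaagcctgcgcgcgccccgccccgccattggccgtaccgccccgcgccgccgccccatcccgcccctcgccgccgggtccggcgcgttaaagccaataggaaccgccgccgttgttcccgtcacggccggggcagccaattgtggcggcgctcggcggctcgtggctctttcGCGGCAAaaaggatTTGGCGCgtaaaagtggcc
UHRF1: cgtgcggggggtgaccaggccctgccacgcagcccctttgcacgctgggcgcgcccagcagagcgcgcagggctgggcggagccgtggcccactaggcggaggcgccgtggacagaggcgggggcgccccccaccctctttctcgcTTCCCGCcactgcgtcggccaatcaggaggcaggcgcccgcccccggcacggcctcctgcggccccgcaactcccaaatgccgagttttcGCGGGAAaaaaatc
PCNA: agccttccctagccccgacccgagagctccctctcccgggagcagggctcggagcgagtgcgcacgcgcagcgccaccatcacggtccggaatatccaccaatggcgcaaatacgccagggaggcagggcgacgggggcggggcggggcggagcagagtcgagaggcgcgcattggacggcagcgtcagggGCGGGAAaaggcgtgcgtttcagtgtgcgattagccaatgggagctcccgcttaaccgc

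DTL, ZNF367, E2F1 and UHRF1 each hold 2 E2F matches in these bases and PCNA holds 1. In ZNF367 and E2F1 both matches lie within 35 bases of the start, and in DTL the nearer one ends at the start itself. A match is a run of letters and was not measured as a binding site here.

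Values are signals of the array's scanner software, scaled by the authors so that each array has the same trimmed mean, and 1 array gives 1 value for each gene, clone and time. Changes were computed on log2(signal + 16), which understates the change of dim genes, and tested with limma with terms for time and clone. A gene is called at a Benjamini-Hochberg adjusted p under 0.05 over all 13675 genes. The NOTCH3 probe set went from 94.6 at time 0 to 446 at time 24 in c6 and from 218 to 1028 in c8. Whether its probes lie in the introduced part is not known here. HEY1, a direct Notch target, went from 30.0 to 553 between times 0 and 4 in c6 and from 71.4 to 2259 in c8. The summed signal of 12 neuroblast markers, TH among them at 8.5 or less on every array, was 13089 and 13170 at time 0 and lower on every later array, at 10079 to 12898 at times 4 to 12, 10357 to 11903 at time 24 and 9849 to 11599 at times 48 to 96. MYCN and GATA3 made up most of this sum on every array. Of the 11 that passed the filter, 2 were called lower (DBH and PHOX2A) and 2 higher (GATA2 and STMN2) over times 48 to 96, where 1.73% of all genes were called lower and 5.21% higher. The sum of 12 smooth muscle and fibroblast markers was 1134 to 1421 at time 0, 933 to 2213 at times 4 to 12, 3215 to 5320 at time 24 and 7322 to 17990 at times 48 to 96. PDGFRA made up most of this sum at time 0, and ACTA2 with COL3A1 most of it at times 48 to 96. Over times 48 to 96 ACTA2, COL3A1, LUM and THY1 were called higher, while PDGFRA was called lower (-0.51 ± 0.14, limma adjusted p = 0.0421). Those named had the smallest p over times 4 to 12 or over times 48 to 96, and calls of the others are not given. COL1A2 read 19.0 or less on every array. Of the 12, 6 or 7 were under a signal of 16 at time 0 and 0 or 1 at times 48 to 96. The part of both lists in the changes below was not tested. These are bulk RNA values, so fewer cells in S phase and less RNA per cell cannot be told apart.

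Most of the S phase genes fell, with their lowest signals at time 12 or 24, and their median then came back part of the way. In clone c6 the median gene stood at 89.7% of its own time-0 level at time 4, 82.6% at time 8, 58.2% at time 12 and 48.9% at time 24. It was back at 78.4% at time 48 and then stood at 77.6%, 68.9% and 70% at times 72, 96 and 120. The low point came earlier and was shallower in clone c8. There the median gene stood at 91.6%, 80.7% and 58.3% of its time-0 level at times 4, 8 and 12, then at 77.3% at time 24, 92.2% at time 48, 95.2% at time 72 and 83.1% at time 96. The median of all 13675 genes stayed between -0.0034 and 0.078 on the log2 scale at every time in both clones.

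**Figure D1:**
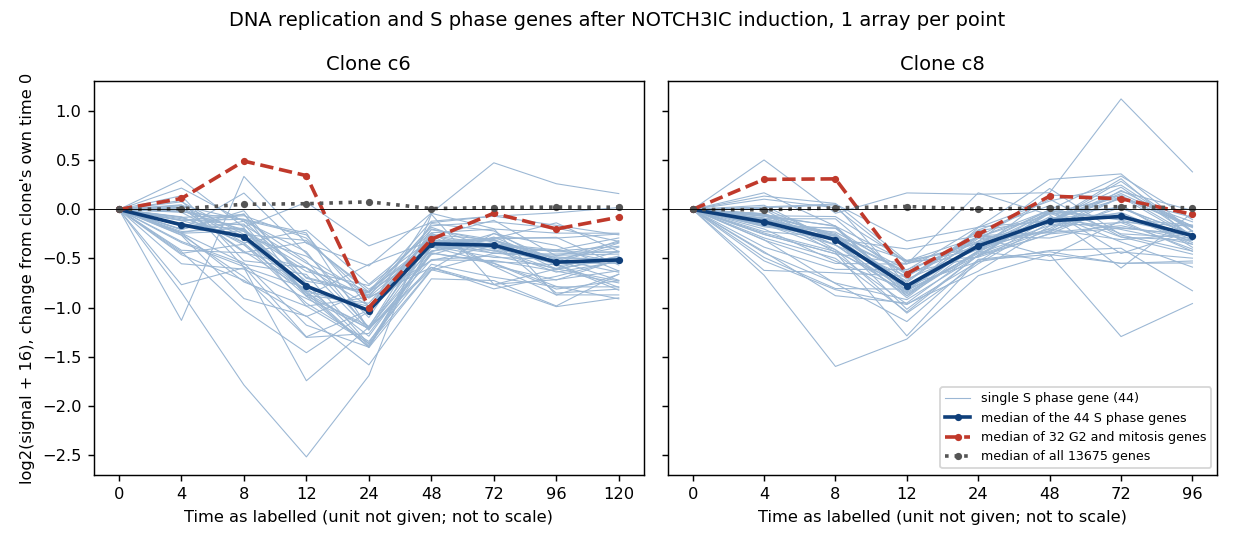
Change in log2(signal + 16) of each of the 44 S phase genes (thin lines), their median (thick line), the median of 32 G2 and mitosis genes (dashed) and of all 13675 genes (dotted) from the clone's own time 0, with clone c6 left and clone c8 right and the labelled time on an axis not to scale. The S phase median is lowest at time 24 in c6 (-1.03) and at time 12 in c8 (-0.78), and at times 4 and 8 the mitosis median lies above 0 while the S phase median lies below it.

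At time 12, 31 of the 44 genes were called lower than at time 0, and at time 24 36 were, where 2.53% and 2.42% of all genes tested were called lower. All 44 lay below 0 at both times, with a median of -0.76 at time 12 and -0.74 at time 24 against 0.049 and 0.039 over all genes. On the 4 arrays of times 12 and 24, 41 of the 44 lay below time 0 of the same clone, which 18.1% of all genes did, and the other 3 were CDT1, POLD1 and CLSPN. Below both time-0 arrays lay 39, against 11.1% of all genes, POLE and TYMS being outside as well. Not called at time 12 were CDT1, ORC6, CDC45, PRIM1, POLE, POLD1, RFC3, RFC4, LIG1, RRM1, TYMS, CHAF1A and CLSPN. Not called at time 24 were CDT1, GINS2, POLA1, POLD1, RFC4, RPA2, E2F2 and CLSPN. These counts rest on few arrays. Without the c6 array of time 0, limma called 0 of 44 at time 12 and 0 at time 24, with medians of -0.65 and -0.61 and 31 and 36 genes at an unadjusted p under 0.05. Without the c8 array of time 0, 11 and 5 genes were called. Without the c8 array of time 12, 9 were called at time 12, and without the c6 array of time 24, 0 were called at time 24 (median -0.44, 24 genes at an unadjusted p under 0.05). Without the c8 array of time 24, 40 were called at time 24. With no term for the clone, 8 were called at time 12 and 4 at time 24.

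The first times held smaller changes. The mean of times 4, 8 and 12 was lower than time 0 for all 44 genes, with a median of -0.41 against 0.025 over all genes, and 6 genes were called lower (0.724% of all genes tested). The 6 were SLBP, DTL, ZNF367, E2F1, CDC6 and UHRF1. With either time-0 array left out 0 of 44 were called, with 9 genes at an unadjusted p under 0.05 without that of c6 and 27 without that of c8. With either array of time 24 left out 11 were called. At time 4 alone limma called 0 of 44 (0.00731% of all genes were lower), with 5 at an unadjusted p under 0.05, and at time 8 it called 3 (0.124% of all genes). Those 3 were ZNF367, DTL and SLBP. Leaving out either array of time 0 or of time 8 gave 0 calls at time 8, with 6 to 16 genes at an unadjusted p under 0.05. Leaving out either array of time 96 gave 1 call and either array of time 24 gave 6. On the 6 arrays of times 4, 8 and 12, 25 of the 44 genes lay below time 0 of the same clone, as did 9.62% of all genes, and 14 lay below both time-0 arrays, as did 4.13%.

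**Figure D2:**
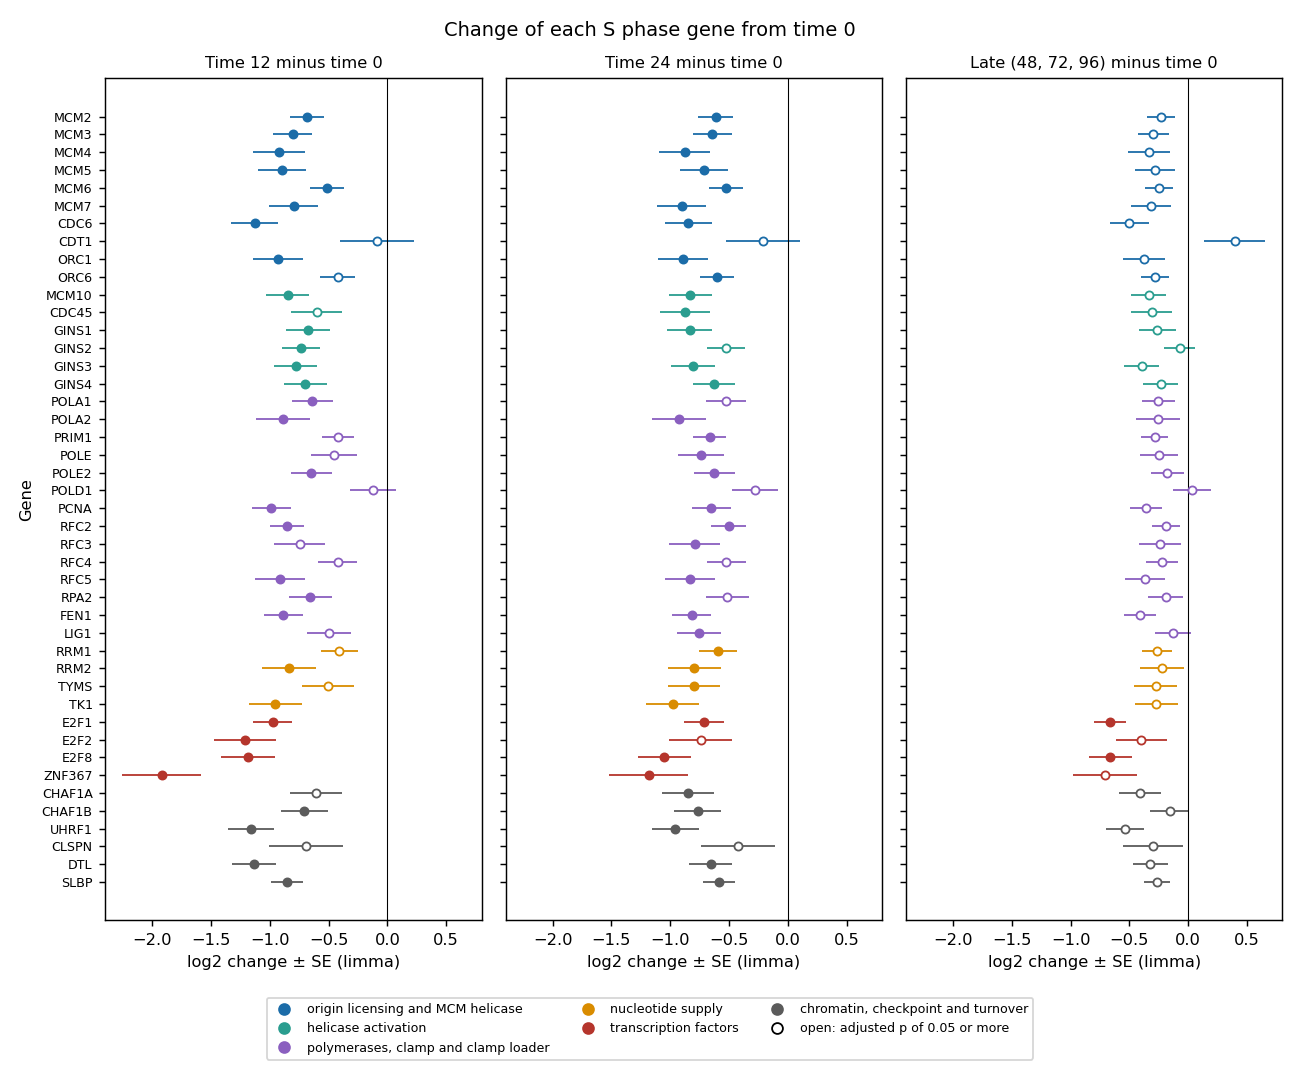
Log2 change with its limma standard error for each of the 44 S phase genes, coloured by role, at time 12, at time 24 and over the late times 48, 72 and 96, each against time 0 on a shared axis. Filled points passed an adjusted p of 0.05 over all genes: 31 at time 12, 36 at time 24 and 2 (E2F1 and E2F8) over the late times.

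In the licensing group, 8 of 10 genes were called lower at time 12 and 9 of 10 at time 24, CDT1 being outside both. MCM2 is a subunit of the MCM ring. In c6 its signals in time order, from time 0 to time 120, were 2388, 2256, 2301, 1462, 1300.1, 1909, 1917, 1690 and 1679.6. In c8, from time 0 to time 96, they were 2322, 2081, 2029.9, 1458, 1810.4, 2132, 2574 and 1923. The 4 values of times 12 and 24 lay below both time-0 values, and MCM2 fell 1.61-fold at time 12 (-0.68 ± 0.15, limma adjusted p = 0.0125). MCM5, another ring subunit, read 959, 949.6, 829, 516, 487, 798, 710, 717 and 653 in c6 and 882, 645, 518, 459, 632, 740.2, 912 and 672 in c8, in the same order. It fell at time 12 (-0.90 ± 0.21, limma adjusted p = 0.0182) and at time 24 (-0.71 ± 0.21, limma adjusted p = 0.0455), and in c8 it passed its time-0 signal at time 72. MCM6 had signals of 2624, 2216, 2252, 1686, 1526, 2126, 1920.2, 1911 and 1945 in c6 and of 2099, 1977, 1697, 1584, 1741, 1785, 2291 and 1844 in c8. Its fall was smaller, -0.52 ± 0.14 at time 12 (limma adjusted p = 0.0459). MCM4 stood at 996, 1063, 658, 564, 397, 736, 836, 769 and 639 in c6 and at 729, 593, 511, 345, 524, 711, 576 and 479.6 in c8. Its lowest signals were 39.9% (c6, time 24) and 47.3% (c8, time 12) of the clone's own time 0. MCM3 and MCM7 fell at both times as well, by 0.81 and 0.80 at time 12 and by 0.64 and 0.90 at time 24 on the log2 scale.

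CDC6, which brings the ring to the origin, was the 1 licensing gene called lower over times 4 to 12. Its c6 signals were 608, 506, 371, 236, 244, 441, 415, 406 and 337, and its c8 signals 466, 342, 246, 233, 343, 320.1, 341 and 326. Over times 4 to 12 it fell 1.68-fold (-0.75 ± 0.16, limma adjusted p = 0.0282), and at time 12 2.19-fold. ORC1, the largest subunit of the origin recognition complex, gave 334, 338, 273, 161, 120, 252, 223, 187 and 170 in c6. The c8 signals of ORC1 were 239, 223, 182, 122, 174, 212, 233 and 186. ORC1 was near its time-0 level at time 4 and fell at time 12 (-0.93 ± 0.22, limma adjusted p = 0.0186), and both clones had their lowest ORC1 signal on the array where most of the set was lowest. For ORC6, a smaller subunit of the complex, c6 showed 866, 878, 635, 684, 486, 665, 706, 704 and 725 and c8 876, 774, 723, 607, 664, 761, 705 and 735. ORC6 passed the test at time 24 (-0.60 ± 0.14, limma adjusted p = 0.0185) and not at time 12 (-0.43 ± 0.14, limma adjusted p = 0.101).

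CDT1, the loading factor that is destroyed once S phase has begun, was measured by probe sets that differed. The brighter one stands for the gene here, and its identifier ends in x_at, the array maker's mark for probes that may also match other transcripts. It read 216, 89.9, 277, 166, 139.6, 210.2, 306, 262 and 243 in c6, with its lowest signal at time 4. In c8 the readings were 183, 266, 178, 208, 205, 208, 418 and 243, with the highest at time 72. The time-12 and time-24 arrays overlap the time-0 arrays, and the changes were -0.089 ± 0.32, limma adjusted p = 0.907 at time 12 and -0.21 ± 0.32, limma adjusted p = 0.76 at time 24. Over times 48 to 96 this CDT1 probe set had the highest value of the 44, 0.40 ± 0.26, limma adjusted p = 0.469. A dimmer CDT1 probe set gave -0.58 at time 12 and -0.91 at time 24, with standard errors of 0.28, beside list medians of -0.76 and -0.74.

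Helicase activation genes fell with the ring: 5 of 6 were called at time 12 and 5 of 6 at time 24. MCM10, a scaffold that helps to open the origin, measured 652, 581, 568, 355, 271, 499.6, 460, 454 and 413 in c6 and 559.7, 560.1, 417, 304, 409, 530.3, 484 and 434 in c8. It fell 1.8-fold at time 12 (-0.85 ± 0.18, limma adjusted p = 0.0122) and 1.78-fold at time 24 (adjusted p = 0.0112). In c8 it read 560.1 at time 4 against 559.7 at time 0. Over times 4 to 12 this MCM10 probe set gave -0.41 ± 0.15, while dimmer ones gave -0.50 ± 0.13 and -1.06 ± 0.14. CDC45, which joins the ring to make it a helicase, had 354, 414, 324, 259, 143, 226, 297, 242 and 208 in c6. In c8 CDC45 had 368, 350.1, 308, 209, 249.8, 346, 357 and 284. At time 12 the c6 value was still 73% of time 0 and the change missed the threshold (-0.60 ± 0.21, limma adjusted p = 0.116), and at time 24 CDC45 fell 1.83-fold (adjusted p = 0.0212). GINS2, 1 of 4 GINS subunits, ran through 404, 415, 343, 237, 219, 371, 385, 359.5 and 335 in c6 and 446, 417, 370.1, 259.7, 381, 413, 482 and 421 in c8. It fell at time 12 (-0.74 ± 0.16, limma adjusted p = 0.0139), with -0.53 ± 0.16, limma adjusted p = 0.059 at time 24, where c8 was back at 85.5% of its start. GINS1, GINS3 and GINS4 fell at both times, by 0.68, 0.78 and 0.70 at time 12 and by 0.84, 0.81 and 0.63 at time 24 on the log2 scale.

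Of the 14 polymerase, clamp and loader genes, 8 were called lower at time 12 and 10 at time 24. PCNA, the sliding clamp, had c6 signals of 2484, 1962, 1653, 1001, 1211, 2100.4, 1664, 1502 and 1738. Its c8 signals were 2773, 2685, 2151, 1723, 2292, 2263, 2531 and 2462. The c6 signal was already at 79% of its start at time 4 and at 40.3% at time 12, against 62.1% in c8, and PCNA fell 1.99-fold at time 12 (-0.99 ± 0.17, limma adjusted p = 0.00242). RFC2, a subunit of the loader that puts PCNA on DNA, showed 376, 356, 294, 197, 250.1, 298, 304, 341 and 275 in c6 and 411, 369, 316, 225, 297, 357, 450.3 and 333 in c8. It fell at time 12 (-0.85 ± 0.15, limma adjusted p = 0.0028), and unlike most of the list it was higher at time 24 than at time 12 in both clones. FEN1, the nuclease that trims the flaps of the lagging strand, gave 2261, 1535, 1477, 1197, 967, 1497, 1283, 1403 and 1574 in c6 and 1680.4, 1628, 1399, 917, 1248, 1663, 1558 and 1395 in c8. FEN1 fell 1.85-fold at time 12 (adjusted p = 0.00546) and 1.76-fold at time 24 (limma adjusted p = 0.00764), the smallest p of the 44 at time 24.

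PRIM1, the primase that lays down the RNA primer, registered 943, 996, 787, 754, 519, 696, 762, 772 and 632 in c6 and 854, 817, 812, 587, 605, 716, 747 and 713 in c8. Its change was -0.42 ± 0.14, limma adjusted p = 0.0879 at time 12 and -0.66 ± 0.14, limma adjusted p = 0.00842 at time 24. POLE, the catalytic subunit of the leading-strand polymerase, was at 196, 202, 180.2, 161, 90.4, 159, 180, 136 and 152 in c6 and at 147, 124, 118, 88.1, 101, 145, 118 and 115 in c8. The c6 value at time 12 lay above the c8 value at time 0, and POLE was called at time 24 (-0.74 ± 0.20, limma adjusted p = 0.0316) and not at time 12 (-0.45 ± 0.20, limma adjusted p = 0.194). Its partner subunit POLE2 came to 343, 316, 281, 242, 178, 304, 313, 299 and 271 in c6 and 399, 345, 272, 219, 306, 363, 349 and 329 in c8. POLE2 fell at both times, -0.65 ± 0.17 at time 12 and -0.63 ± 0.17 at time 24 (adjusted p = 0.0381 and 0.0367). RPA2, part of the protein that coats single-stranded DNA, amounted to 1218, 1031, 1119.7, 748, 668, 1073, 916, 791 and 872 in c6 and 1240.2, 1108, 1054, 802, 1094, 1141, 1410 and 1230.5 in c8. RPA2 fell at time 12 (-0.66 ± 0.18, limma adjusted p = 0.0467) and gave -0.51 ± 0.18, limma adjusted p = 0.102 at time 24. POLD1, the catalytic subunit of polymerase delta, ranged from 201 to 353 over the 17 arrays and had a change of -0.12 ± 0.20, limma adjusted p = 0.769 at time 12 and -0.28 ± 0.20, limma adjusted p = 0.452 at time 24. Of the remaining 6, POLA1, POLA2 and RFC5 were called at time 12 (by -0.64, -0.89 and -0.92), POLA2, RFC3, RFC5 and LIG1 at time 24 (by -0.93, -0.79, -0.83 and -0.76), and RFC4 at neither.

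Of the 4 genes of nucleotide supply, 2 were called lower at time 12 and all 4 at time 24. RRM2, the subunit of ribonucleotide reductase that limits deoxynucleotide supply, recorded 2079, 2038, 1614, 1161, 776, 1588, 1554, 1329 and 1434 in c6 and 1666, 1587, 1482, 922, 1464, 1769, 1982 and 1420.4 in c8. It fell 1.79-fold at time 12 (-0.84 ± 0.23, limma adjusted p = 0.0418) and in c6 dropped further to 37.3% of its start at time 24. TYMS, thymidylate synthase, had signals of 3013, 2786, 2808, 2549.9, 1283, 2109, 2166, 1981 and 2239 in c6. In c8 the TYMS signals were 2415, 2444, 2494, 1406, 1857, 2362, 2630.3 and 2149. TYMS was at 84.6% of its start at time 12 in c6 and at 103% at time 8 in c8, and then at 42.6% at time 24 in c6 and 58.2% at time 12 in c8. Its change was -0.51 ± 0.22, limma adjusted p = 0.202 at time 12 and -0.80 ± 0.22, limma adjusted p = 0.0387 at time 24. TK1, thymidine kinase of the salvage route, scored 936, 798, 818, 510.3, 343, 603, 682, 665 and 645 in c6 and 806, 725, 602, 379, 544, 733, 987 and 689 in c8. TK1 fell 1.94-fold at time 12 and 1.97-fold at time 24 (limma adjusted p = 0.0204 and 0.0144). RRM1, the larger reductase subunit, had changes of -0.41 ± 0.16, limma adjusted p = 0.148 at time 12 and -0.59 ± 0.16, limma adjusted p = 0.0319 at time 24.

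The transcription factors had the lowest median of the 6 roles at times 4 and 12 in both clones, -0.52 in c6 and -0.57 in c8 at time 4, and -1.42 and -1.13 at time 12. ZNF367, a zinc finger protein, had the lowest log2 change of the 44 at times 8 and 12. Its c6 signals were 264, 140.1, 65.1, 32.8, 70.6, 255, 149, 155 and 166, and its c8 signals 317, 193, 93.7, 117, 192, 226, 119.5 and 155. At time 12 in c6 the signal was 12.4% of the start, and at time 48 it was 96.5%. ZNF367 fell 2.75-fold over times 4 to 12 (-1.46 ± 0.27, limma adjusted p = 0.0114). The only ZNF367 probe set has an identifier ending in x_at, the mark described for CDT1, as have the chosen ones of ORC6 and CHAF1A. E2F1, an activator of S phase genes whose promoter is printed above, showed 261, 218, 149.7, 124, 133, 168, 147, 123 and 132 in c6. In c8 E2F1 showed 287, 194, 156, 139, 193, 210.5, 214 and 154. All 15 later arrays lay below both time-0 arrays, and E2F1 was called over times 4 to 12 (-0.71 ± 0.14, limma adjusted p = 0.0136), over times 48 to 96 (-0.67 ± 0.14, limma adjusted p = 0.00609) and at time 96 (-0.91 ± 0.17, limma adjusted p = 0.00328). It was the 1 member called at time 96 (1.21% of all genes lower). At time 120, which is 1 array of c6, its signal was 50.7% of that clone's start.

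E2F2, a second activator, stood at 168, 92.4, 106, 39.0, 64.3, 145, 130.3, 86.2 and 89.1 in c6 and at 190.3, 118, 116, 113, 154, 132, 175 and 138 in c8. The c6 signal was lowest at time 12, at 23.1% of its start, while in c8 it was at 59.2%. E2F2 fell at time 12 (-1.21 ± 0.27, limma adjusted p = 0.0135) and gave -0.74 ± 0.27, limma adjusted p = 0.104 at time 24. E2F8, an atypical E2F that represses S phase genes, measured 202, 166, 100.3, 86.8, 56.8, 118, 116, 94.4 and 122 in c6 and 190.4, 184, 136, 68.5, 128, 134, 125 and 125 in c8. E2F8 fell at both times (-1.19 ± 0.23 and -1.05 ± 0.23) and stayed lower over times 48 to 96 (-0.66 ± 0.19, limma adjusted p = 0.0439). At time 12 the activators E2F1 and E2F2 and the repressor E2F8 were thus all lower than at the start.

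**Figure D3:**
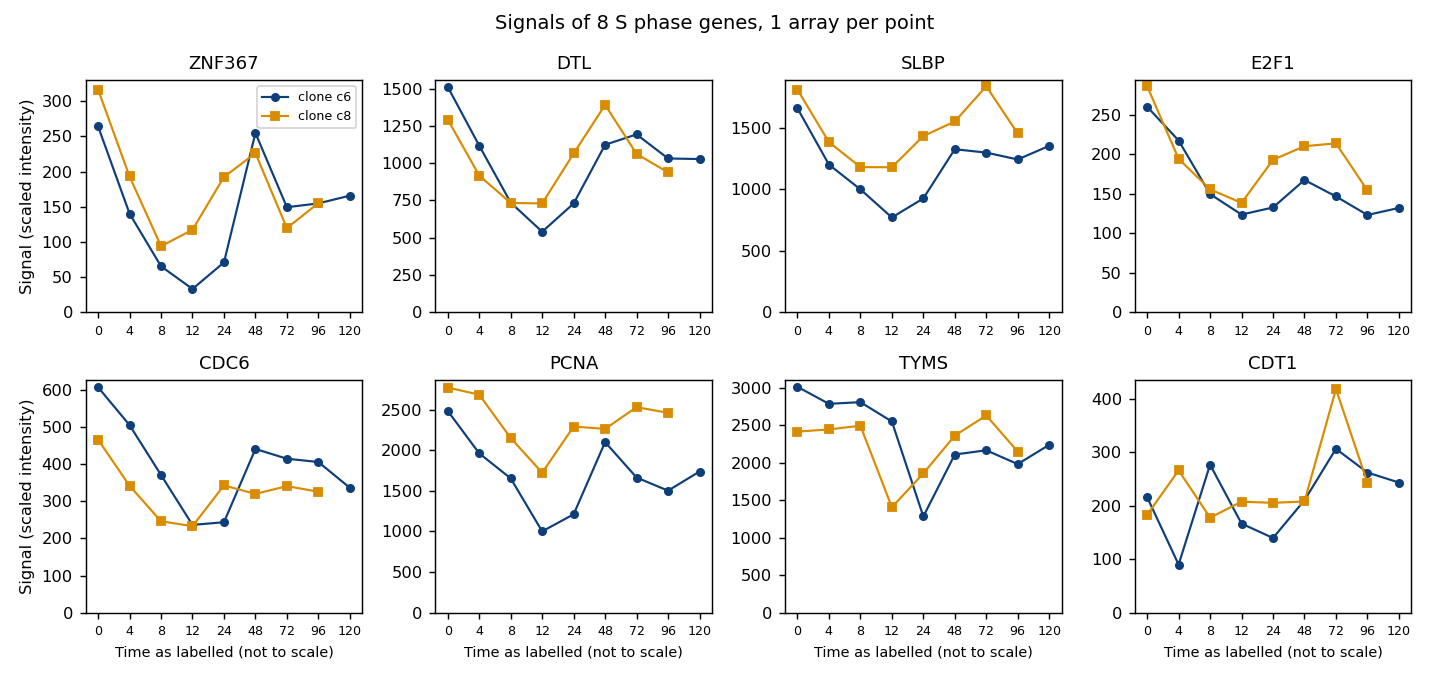
Signal of 8 S phase genes against the labelled time (axis not to scale), with clone c6 as circles and clone c8 as squares, 1 array per point and each vertical axis starting at 0. ZNF367, DTL, SLBP, E2F1, CDC6 and PCNA are lower at time 8 than at time 0 in both clones, TYMS drops at time 24 in c6 and at time 12 in c8, and the brighter CDT1 probe set, the one drawn, has no common low point.

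In the chromatin, checkpoint and turnover group, 4 of 6 genes were called at time 12 and 5 of 6 at time 24. SLBP, which binds the stem-loop of histone messages and is made in S phase, was at 1662, 1203, 1001, 772, 927, 1328, 1301, 1245 and 1356 in c6. In c8 SLBP was at 1815, 1387, 1183, 1181, 1436, 1555, 1842 and 1457. SLBP had the smallest p of the 44 over times 4 to 12, with a 1.57-fold fall (-0.65 ± 0.11, limma adjusted p = 0.00638), and at time 12 (-0.85 ± 0.14, limma adjusted p = 0.00183). DTL, which directs CDT1 and other proteins to destruction in S phase, read 1511, 1117, 734, 539, 728, 1123, 1192, 1031 and 1027 in c6 and 1292, 916, 732, 729, 1064, 1391, 1062 and 938 in c8. In c6 it was at 35.7% of its start at time 12, and DTL fell 1.79-fold over times 4 to 12 (-0.84 ± 0.15, limma adjusted p = 0.00858). UHRF1, which carries DNA methylation through replication, gave 1967, 1661, 1342, 859.6, 734, 1633, 1310.3, 1068 and 1068 in c6 and 1352, 1088, 794, 603, 945, 998, 918 and 934 in c8. UHRF1 fell over times 4 to 12 (-0.70 ± 0.16, limma adjusted p = 0.0394), and 2.24-fold at time 12. CLSPN, a mediator of the replication checkpoint, was dim, with 88.4, 89.6, 61.7, 42.8, 35.7, 85.6, 75.1, 41.0 and 50.0 in c6 and 39.5, 28.7, 21.9, 21.7, 46.4, 37.4, 20.7 and 38.2 in c8. Its time-12 and time-24 signals overlap those of time 0, and the change was -0.69 ± 0.32, limma adjusted p = 0.216 at time 12 and -0.42 ± 0.32, limma adjusted p = 0.476 at time 24. Of the chromatin assembly factor subunits, CHAF1B was called at time 12 (-0.71 ± 0.20) and both were at time 24, CHAF1A by -0.85 ± 0.22 and CHAF1B by -0.77 ± 0.20.

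For 38 of the 44 genes the array with the lowest signal was at another time in c6 than in c8. The 6 lowest at the same time in both, time 12, were CDC6, PCNA, RFC2, E2F2, DTL and SLBP. In c6, 35 of the 44 were lowest at time 24, 7 at time 12, CDT1 at time 4 and E2F1 at time 96. In c8, 41 were lowest at time 12, 2 at time 8 and 1 at time 72. No share over all genes was computed for the time of the lowest signal, so these counts only describe the list. From time 12 to time 24, 36 genes went lower and 8 higher in c6, with a median of -0.37, where 46.8% of all genes went lower. In c8 43 went higher in that step, with a median of 0.42, CDT1 being the exception, and 51% of all genes went lower. With 1 array for each clone and time, this difference in timing has no test. From time 24 to time 48 all 44 went higher in c6 and 40 of 44 in c8, with medians of 0.72 and 0.25 against -0.05 and 0.0082 over all genes. Of all genes, 55.9% in c6 and 48.6% in c8 went lower there. The highest signal of the course was at time 0 for 31 of the 44 in c6 and 19 in c8, as it was for 10.8% and 13% of all genes.

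**Figure D4:**
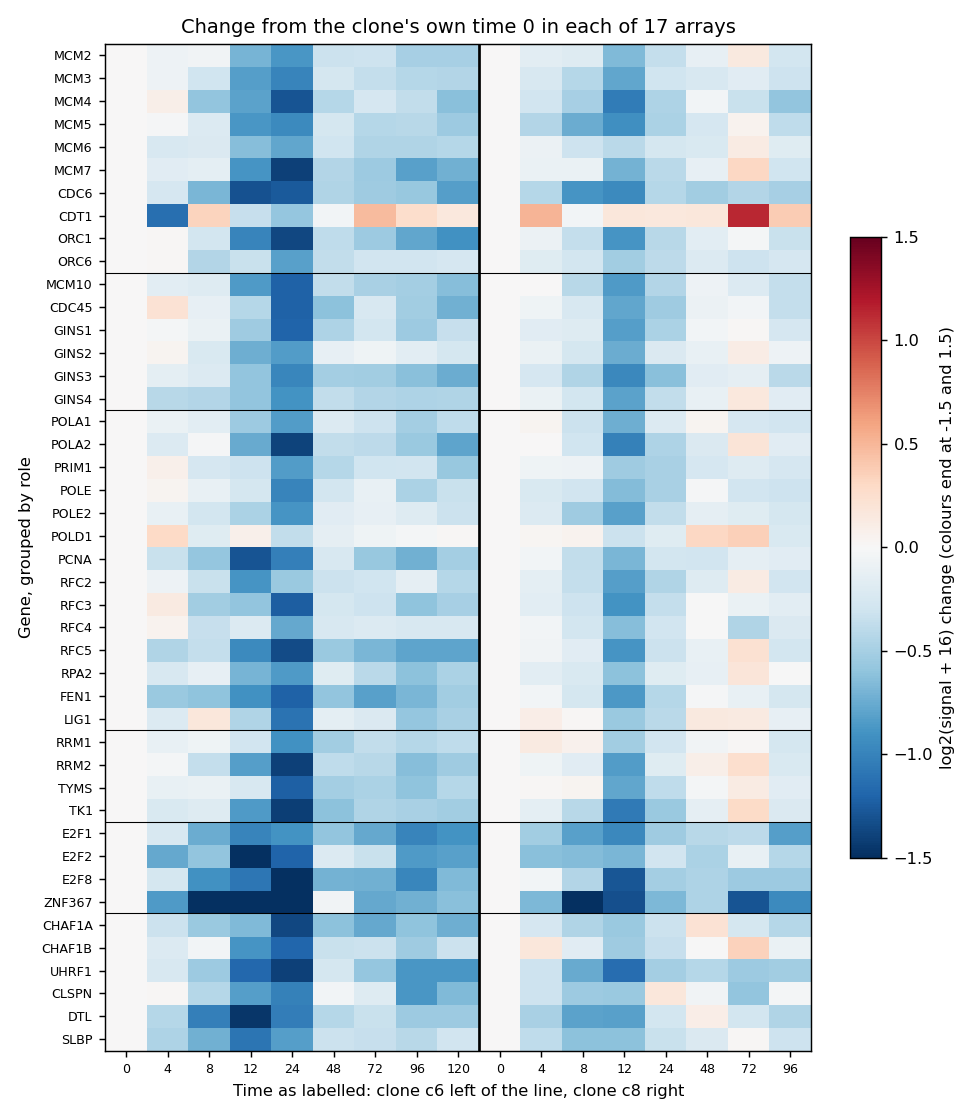
Log2 change of each of the 44 S phase genes from the clone's own time 0 on each of the 17 arrays, with genes in rows grouped by role and arrays in time order, c6 left of the thick line and c8 right; colours end at -1.5 and 1.5. The darkest columns are times 12 and 24 in c6 and time 12 in c8, CDT1 is drawn from its brighter probe set and is low at time 4 in c6, and in c8 several genes are above their start at time 72.

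Times 48, 72 and 96 were compared with the start and with the earlier times. Against time 0, 2 of 44 genes were called lower (1.73% of all genes), E2F1 and E2F8, with a median of -0.28 against 0.015 over all genes and 42 of 44 below 0. With either time-0 array left out, limma called 0 of 44, with 1 gene at an unadjusted p under 0.05 without that of c6 and 13 without that of c8. Leaving out either array of time 24 gave 4 calls, and leaving out either clone's array of time 4, 8, 48, 72 or 96 gave 1. At time 48 alone limma called 0 of 44 (0.519% of all genes lower) with 4 at an unadjusted p under 0.05, and at time 72 also 0 (1.01%) with 8. On the 6 late arrays, 21 of the 44 lay below time 0 of the same clone, against 12.7% of all genes, and 10 lay below both time-0 arrays, against 7.25%. Against times 4, 8 and 12, 2 were called higher (3.77% of all genes), SLBP (0.38 ± 0.10, limma adjusted p = 0.0277) and DTL (0.51 ± 0.14, limma adjusted p = 0.0433), and the median was 0.12. By clone that median was -0.056 in c6 and 0.26 in c8, with 0 calls and 5 genes at an unadjusted p under 0.05 in each. Leaving out 1 array left 0 of these 2 calls for the c6 arrays of times 12, 48, 72 and 96 and for the c8 arrays of times 8 and 72, and 1 for the c6 array of time 8 and the c8 array of time 48.

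A comparison of times 48 to 96 with times 12 and 24 was added after the low point had been seen. All 44 genes were above 0 in it, with a median of 0.46 against -0.02 over all genes, and 10 were called higher (1.07% of all genes): MCM2, MCM10, GINS2, POLA2, PCNA, RFC2, TK1, CHAF1B, DTL and SLBP. GINS2 had the smallest p, 0.56 ± 0.10, limma adjusted p = 0.0127, followed by RFC2 (0.49 ± 0.095, limma adjusted p = 0.015). Without the c6 array of time 24, limma called 0 of 44 (median 0.33, 29 at an unadjusted p under 0.05), and without the c8 array of that time 33. Leaving out the c6 array of time 12 gave 17 calls, that of time 48 gave 5 and that of time 96 gave 1. Leaving out the c8 array of time 48 gave 3, and that of time 72 or 96 gave 4. In 18 of the 44 genes every late array lay above times 12 and 24 of the same clone, as in 2.13% of all genes. Averaged over times 12 and 24 the median gene was at 53.1% of its start in c6 and 67.8% in c8, and averaged over times 48 to 96 at 74.4% and 89.2%. The step from time 24 to time 48 had all 44 above 0 and 33 at an unadjusted p under 0.05, but limma called 0 of the 44 and 0 of all 13675 genes (0%). Without the c8 array of time 24, 7 were called in that step. A test for any change over the course called 12 of 44 (6.61% of all genes): MCM2, CDC6, MCM10, PCNA, RFC2, FEN1, E2F1, E2F8, ZNF367, UHRF1, DTL and SLBP. Without the c6 array of time 0 that test called 0, with 30 at an unadjusted p under 0.05, and without the c8 array of time 0 4.

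Other single arrays moved that count of 12 as well. It was 29 without the c8 array of time 24, and 7 without either array of time 48, without the c6 array of time 8 or without the c8 array of time 4. Without the c6 array of time 4 it was 4, and without the c6 or the c8 array of time 96 it was 5 or 6.

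The 6 roles were also read side by side. At time 8 the median of the transcription factors was -0.82 in c6 and -0.73 in c8, and that of the chromatin, checkpoint and turnover genes -0.55 and -0.58. The licensing genes stood at -0.25 and -0.33, the helicase activation genes at -0.20 and -0.26, the polymerase group at -0.27 and -0.28, and nucleotide supply at -0.15 and -0.061. At the low point nucleotide supply reached -1.31 at time 24 in c6 and -0.81 at time 12 in c8. Differences between roles were not tested. At time 96 the transcription factors had the lowest median in both clones, -0.92 and -0.69.

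**Figure D5:**
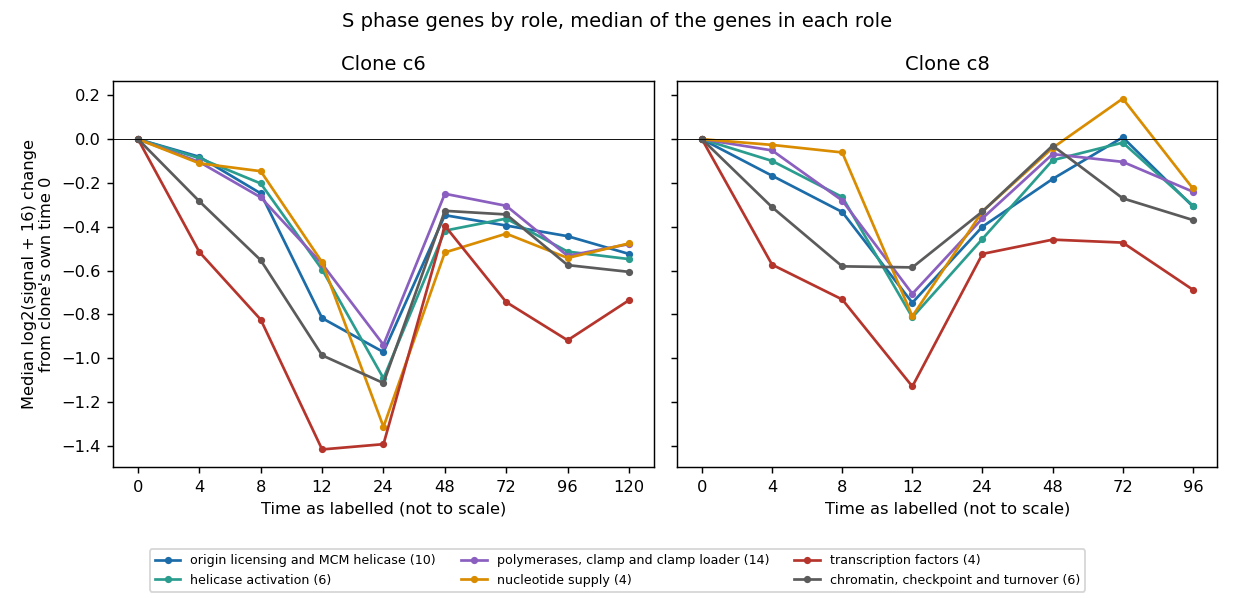
Median log2(signal + 16) change from the clone's own time 0 of the genes in each of the 6 roles (number of genes in brackets), with clone c6 left, clone c8 right and the labelled time on an axis not to scale. The transcription factors are lowest at times 4 and 8 in both clones, and the nucleotide supply genes go from -0.15 at time 8 to -1.31 at time 24 in c6.

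The clones were compared in level and in response. Over the 8 shared times 8 of the 44 differed in level, a smaller share than the 21.7% of all genes called in either direction. Differences between the clones in level were thus not particular to the list. Higher in c8 were PCNA (0.51 ± 0.083, adjusted p = 0.000616), SLBP (0.34 ± 0.068, adjusted p = 0.00264), E2F2 (0.47 ± 0.13, adjusted p = 0.0207) and RPA2 (0.27 ± 0.092, adjusted p = 0.0467), as log2 differences of c8 minus c6. PCNA and SLBP were higher in c8 at 8 of 8 times. Higher in c6 were CLSPN (-0.73 ± 0.16, adjusted p = 0.00424), UHRF1 (-0.43 ± 0.10, adjusted p = 0.00696), POLE (-0.39 ± 0.10, adjusted p = 0.0117) and MCM4 (-0.39 ± 0.11, adjusted p = 0.0184), each at 7 of 8 times. Without either array of time 96 the count was 5. For the response, times 48 to 96 minus times 4 to 12 in c8 minus the same in c6, limma called 0 of the 44 and 0 of 13675 genes (0%), with 3 members and 1193 genes at an unadjusted p under 0.05. The median of the members in that difference was 0.27, with 38 of 44 above 0.

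Other genes of the same pathway were read from lists. Of 33 further replisome and licensing subunits, 3 were called lower and 2 higher at time 12 (3.63% of all genes were called higher), and 8 lower and 2 higher at time 24 (5.76% higher), with medians of -0.31 and -0.38. GMNN, or geminin, which binds CDT1 and blocks licensing, had signals of 1584, 1912, 2906, 3169, 2817, 2177, 1919.8, 1996 and 2100.5 in c6 and 1753, 3589, 3712, 3442, 2812, 2240.3, 2264 and 2587 in c8. All later arrays lay above both time-0 arrays, and GMNN rose 1.82-fold over times 4 to 12, where 1.29% of all genes were called higher (0.87 ± 0.13, limma adjusted p = 0.00305). POLD4, the small subunit of polymerase delta, rose 2.36-fold at time 12 and 3.35-fold at time 24 (limma adjusted p = 0.0143 and 0.00115). TIPIN, which protects the replication fork, fell over times 4 to 12 (-0.54 ± 0.11, limma adjusted p = 0.0185). Of 27 tested S phase regulators and nucleotide and chromatin assembly genes, 12 were called lower and 0 higher at time 12 and again at time 24, with medians of -0.62 and -0.64 and all 27 below 0 both times. CCNE2, the cyclin E2 that drives entry into S phase, had signals of 376, 280.5, 113, 88.5, 139.8, 305, 225, 216 and 232 in c6 and 442, 321, 161, 188, 277, 367, 238 and 274 in c8. CCNE2 fell 2.9-fold at time 12 (-1.54 ± 0.20, limma adjusted p = 0.000419), MSH6, a mismatch repair gene, 1.71-fold and CCNE1, cyclin E1, 1.53-fold. E2F7, like E2F8 a repressor, fell 2.23-fold at time 12 and 2.22-fold at time 24, and NASP, a histone chaperone, 1.47-fold and 1.51-fold.

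Of 32 genes of G2 and mitosis, limma called 0 in any comparison with time 0, and the list was not tested against the S phase genes. At times 4 and 8 their median was above the start, 0.11 and 0.49 in c6 and 0.31 and 0.31 in c8, while the S phase median was below it, at -0.28 and -0.31 at time 8. At time 8, 7 of the 32 had an unadjusted p under 0.05, as did 12.7% of all genes. At time 12 the mitosis median was 0.34 in c6, where the S phase median was -0.78, and -0.65 in c8, where the S phase median was -0.78. At time 24 it was -1.0 in c6 and -0.25 in c8, beside S phase medians of -1.03 and -0.37. All 32 were below 0 at time 24, with 17 at an unadjusted p under 0.05, as were 22.5% of all genes. MKI67, the proliferation antigen, read 653, 705, 718, 693, 199.6, 465, 549.8, 476 and 499 in c6 and 573, 737, 652, 286, 447, 578, 434 and 484 in c8, a change of -0.99 ± 0.33, limma adjusted p = 0.0828 at time 24. CDK1, the mitotic kinase, had -0.80 ± 0.27, limma adjusted p = 0.0829 and CENPF, a kinetochore protein, -0.76 ± 0.30, limma adjusted p = 0.136 at that time. Over times 4 to 12, KIF20A, CDCA8 and TPX2, which act in the spindle and in cell division, had log2 values of 0.33 ± 0.19, 0.32 ± 0.22 and 0.32 ± 0.22. Over times 48 to 96 the list's median was -0.069, with 0 of 32 at an unadjusted p under 0.05.

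Of 14 tested cell cycle inhibitors and genes of the retinoblastoma family and its partners, 1 was called higher at every time from 4 to 96, CDKN1C. Of all genes, 3.63% were called higher at time 12 and 5.76% at time 24, and the share was not taken at the other single times. CDKN1C, the inhibitor p57 of cyclin-dependent kinases, had signals of 176, 636, 1535, 1967, 1682, 628, 553, 695 and 679 in c6. In c8 its signals were 197, 1155, 1809.6, 2239.8, 1106, 589, 854 and 756. It rose 7.22-fold over times 4 to 12 (2.85 ± 0.19, limma adjusted p = 6.43e-07), where 1.29% of all genes were called higher. CDKN1C was highest at time 12 in both clones and lower over times 48 to 96 than over times 4 to 12 (-1.09 ± 0.22, limma adjusted p = 0.00585). At time 12, 3 of the 14 were called lower (2.53% of all genes), among them CDKN1A, or p21 (-0.80 ± 0.18, limma adjusted p = 0.0186), and RB1 (-0.65 ± 0.15, limma adjusted p = 0.0186). E2F6, a repressor, had -0.51 ± 0.16, limma adjusted p = 0.0746.

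Likeness among the members is given as a description. Over the 17 arrays, which share their scaling and their clones, Pearson's r of a gene's log2 signal with the mean of the other 43 had a median of 0.84 and was over 0.8 for 28 of 44. The 3 lowest were CDT1 (0.18, its brighter probe set), CLSPN (0.37) and POLD1 (0.59). With each clone's mean removed the median was 0.91 and CLSPN stood at 0.68. For 24 of the 44 the array holds further probe sets, 40 in all, of which 38 had the sign of the chosen one at time 12, and the exceptions were probe sets of MCM4 and POLA2.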

How the data were processed

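Total RNA of each clone and time was labelled and hybridised to 1 array each, per the labels' protocols. The authors deposited 1 table of linear signal intensity for 54675 probe sets, and MAS5 and GCOS are named in the submitters' processing notes, while versions and any background correction are not stated in the labels or headers. The deposited intensity values have a 2% trimmed mean of 100.01 on every array and medians of 14.6 to 19.3, and no further scaling was applied. A fixed trimmed mean hides a change common to all RNA. Of the probe sets, 41097 list 1 gene symbol in the platform annotation, 1801 several and 11777 were unlisted and unnamed here. Signals were taken to log2 after adding 16, and genes whose mean was under 4.68 (the 40th percentile of probe-set means) were left out. limma 3.58.1 in R 4.3.3 (lmFit, eBayes with trend) was fitted to all 17 arrays with time and clone, leaving 7 residual degrees of freedom. Times 4, 8 and 12, and 48, 72 and 96, were averaged as contrasts. The comparison of late with early times used the 12 arrays of those times. Time 120 is c6 alone. The clone is the number that pairs arrays across times: across genes, the difference between clones at 1 shared time correlated with that at another at r of 0.13 to 0.49 over 8 times, so clone is a block in the fit. The members and gene lists were chosen with earlier results of these data known. Genes named with all values were the 22 of a fixed list and those of smallest p in each comparison, and other lists give up to 3 genes. The fit was tested on simulated data. No array pair shared over 1.42% of its values. Alternatives tried were the pseudocount, normalization, filter, probe-set choice, eBayes trend, clone block, means over phases, fits within 1 clone and fits with 1 array dropped.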

Additional observations from a re-analysis of the deposited data

How the results depend on the processing

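Counts of the 44 genes called by limma moved with several choices, and for each the cause was not tested; no called gene reversed its direction. Where an alternative below other than a left-out array gave 0, 3 to 37 of the 44 had an unadjusted p under 0.05. Their median stayed below 0 under 111 of 111 alternative values for times 4 to 12, time 12, time 24 and times 48 to 96 against time 0. Against 6 genes lower over times 4 to 12, 1 was called with no clone block (replicate block), 1 with phase means, 0 in c6 alone, 0 in c8 alone and 0 from times 4 and 8 only, the last added after seeing the data, as were all alternatives for single times and for late against times 12 and 24. Against 2 lower over times 48 to 96, 1 was called with a pseudocount of 1, 1 with no filter, 1 without the eBayes trend, 1 with phase means, 0 with no block, 0 in c6 alone and 0 in c8 alone. Against 2 higher late than early, 0 were called with median centring, 1 with no filter, 1 with the mean of probe sets, 0 without the trend, 0 with no block and 0 in either clone alone. Over time, 12 became 4 with no filter, 6 with the mean of probe sets, 0 without the trend and 0 with no block. At time 8, 3 became 1 with median centring and 0 with no filter, with the mean of probe sets, without the trend or with no block. At time 12, 31 became 18 without the trend and 8 with no block, and at time 24, 36 became 18 with no filter, 15 without the trend and 4 with no block. Against times 12 and 24, the 10 higher late became 3 with no filter, 3 with the mean of probe sets, 2 without the trend and 0 with no block. With 1 array left out at a time, counts ranged from 0 to 11 over times 4 to 12, 0 to 4 over times 48 to 96, 0 to 2 for late against early, 0 to 29 over time, 5 to 10 for clone level, 0 to 6 at time 8, 0 to 32 at time 12, 0 to 40 at time 24, 0 to 7 for time 48 against 24, and 0 to 33 for late against times 12 and 24, and were 0 to 0 for time 48 and for clone response. With 1 array per clone and time, precision is limited by their number, and a lone array at a time is taken to vary like the others.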
